A study of Homo sapiens and Mus musculus with 24 samples.

Results

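The class IA phosphoinositide 3-kinase (PI3K) genes were followed in MCF10A cells, together with 2 genes that act on the pathway beside them. The set holds the catalytic subunit genes PIK3CA, PIK3CB and PIK3CD, the regulatory subunit genes PIK3R1, PIK3R2 and PIK3R3, the PI3K-interacting protein gene PIK3IP1 and the lipid phosphatase gene INPP4B. Members were taken by symbol, and the estimated read counts of all transcripts carrying a symbol were summed. They are 8 of 56981 symbols and 87 of 207749 transcripts in the tables, and 8 of 8 were among the 21055 genes that passed the filter on low counts. In GENCODE release 29 (GRCh38) PIK3CA lies at chr3:179148114-179240093 and PIK3CB at chr3:138652699-138834938, PIK3CD at chr1:9651732-9729114 and PIK3R3 at chr1:46040140-46133036. PIK3R1 lies at chr5:68215720-68301821, PIK3R2 at chr19:18153118-18170540, PIK3IP1 at chr22:31281593-31292534 and INPP4B at chr4:142023160-142847432.

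MCF10A is a non-tumorigenic line of human breast epithelium. RNA was sequenced from KI cells, which carry a heterozygous knock-in of PIK3CA H1047R, and from parental cells with the genotype wildtype. Each line received BYL719 (alpelisib, an inhibitor of the PIK3CA product) at 1 uM or the solvent DMSO, and the labels give a time of 4 h. The 4 groups are KI BYL719, KI DMSO, parental BYL719 and parental DMSO, with 3 libraries each. The 2 lines come from a supplier's isogenic pair and the labels name 1 line per genotype, so genotype and line cannot be told apart. No label says whether the 3 libraries of a group were separate cultures, and p-values therefore measure only the spread between these libraries, which may be technical. The other 12 of the series' 24 libraries are mouse fibroblasts and were not analysed here.

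Class IA PI3K is a dimer of a catalytic p110 subunit and a regulatory p85-type subunit, which stabilises and restrains p110 and brings it to activated receptors. The enzyme makes the membrane lipid PIP3, which recruits the kinase AKT, and AKT in turn keeps FOXO transcription factors out of the nucleus. PIK3IP1 is a membrane protein that binds p110 and lowers its activity, and INPP4B removes a phosphate from a lipid downstream of PIP3. H1047R lies in the kinase domain of the PIK3CA product p110 alpha and is an activating change found in breast tumours.

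The changed codon is shown in its reference context, since it defines the KI line. The codon lies in exon 21 of PIK3CA-201 in GENCODE release 29, at chr3:179234296-179234298 (GRCh38, plus strand). The stretch printed is chr3:179234266-179234328, and capitals mark the codon changed by H1047R. The tables have 1 row per transcript and do not separate the knock-in from the reference allele.
PIK3CA H1047R codon, reference allele: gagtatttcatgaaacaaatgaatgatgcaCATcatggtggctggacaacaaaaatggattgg

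The promoters of the 2 members whose response to BYL719 differed between the lines are shown next, from the RefSeq promoter table (GRCh38.p14). The table holds 2 overlapping PIK3IP1 windows on the minus strand, of which the one printed, chr22:31292439-31292738, has the match marked in it and the other, chr22:31292485-31292784, has none. The PIK3CA window is chr3:179148107-179148406 on the plus strand. Capitals mark TGTTTAC, the reverse complement of GTAAACA, a core sequence that FOXO and other forkhead factors are known to bind.
PIK3IP1 promoter: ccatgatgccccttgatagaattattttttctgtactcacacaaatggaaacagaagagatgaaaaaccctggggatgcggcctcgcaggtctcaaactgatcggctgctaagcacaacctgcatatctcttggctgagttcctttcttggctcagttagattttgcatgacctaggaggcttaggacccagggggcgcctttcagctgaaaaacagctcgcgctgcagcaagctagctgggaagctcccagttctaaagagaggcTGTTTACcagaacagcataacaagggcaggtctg
PIK3CA promoter: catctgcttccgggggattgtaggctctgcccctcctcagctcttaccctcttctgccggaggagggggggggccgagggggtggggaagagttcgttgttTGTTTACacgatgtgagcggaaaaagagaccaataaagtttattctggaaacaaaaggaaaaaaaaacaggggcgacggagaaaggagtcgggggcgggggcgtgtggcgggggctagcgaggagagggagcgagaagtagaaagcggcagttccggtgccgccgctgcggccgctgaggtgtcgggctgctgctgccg
The match began 16 bases downstream of the start site in PIK3IP1 and 149 bases upstream of it in PIK3CA. In all, 25 windows of 300 bases belong to the 8 genes, and 2 of these 25 windows (8.0%), 1 of PIK3CA and 1 of PIK3IP1, had GTAAACA on either strand, against 3.42% of all 35116 promoter windows. The motif was picked after the expression values were known, along with 7 others. The shorter TAAACA, which overlaps it, was in 5 of the 25 windows (20%), from INPP4B, PIK3CA, PIK3IP1 and PIK3R1, against 12.3% of all windows. The INPP4B windows with it, chr4:142305895-142306194 and chr4:142305783-142306082, overlap and hold the same site. Windows of a gene can overlap, so a site can count in more than 1 window. CAAAACA was in 1 PIK3CD window (4.92% of all) and CACGTG in 1 INPP4B window (7.26%). CCAAT and GGGCGG were each in 10 of the 25 windows (40%), against 34.6% and 45% of all. TGACGTCA (1.85%) and TGAGTCA (4.95%) had no match in these windows. These matches describe letters only and do not show binding.

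The libraries held 120177015 to 162755457 estimated read pairs, and the lowest count of a member was 114, for PIK3IP1 in KI DMSO replicate 3. The basal breast markers were at 8750 to 8960 CPM (counts scaled to the library total) in sum in KI BYL719, 9046 to 9297 in KI DMSO, 9728 to 10234 in parental BYL719 and 10144 to 10430 in parental DMSO, with 9 of 9 genes at 1 CPM or more in every library. Single markers moved apart within this sum. TP63 averaged 59.2 CPM in KI BYL719, 27.7 in KI DMSO, 106 in parental BYL719 and 78.8 in parental DMSO, and KRT14 averaged 211, 263, 50.4 and 52 CPM in that order. Of 5 general epithelial markers 4 were at 1 CPM or more throughout and KRT19 reached at most 0.274 CPM. CDH1 averaged 141, 110, 263 and 241 CPM in that order, and the part of these markers in the results was not tested. Of 9 haematopoietic markers, the blood lineage being where PIK3CD is mainly known, 7 stayed under 0.5 CPM in every library. The CD45 gene PTPRC reached at most 0.0762 CPM, and the other 2, CD14 and CD68, made up most of a sum of 24.4 to 25.6 CPM in KI BYL719, 21.0 to 22.5 in KI DMSO, 19.6 to 20.4 in parental BYL719 and 20.1 to 20.3 in parental DMSO. Fibroblast markers summed to 61.4 to 75.6, 61.6 to 64.3, 56.4 to 59.6 and 54.3 to 56.6 CPM in the same order of groups, led by FAP and COL1A1, with 3 of 7 under 0.5 CPM throughout. COL1A2 averaged 1.52, 0.111, 0.212 and 0.107 CPM in that order, with a highest library of 4.33 CPM. COL3A1 averaged 0.75, 0.0679, 0.0878 and 0.0352 CPM, with a highest library of 2.12 CPM, and COL1A1 averaged 20.9, 22.8, 24.9 and 24.4 CPM. Endothelial markers summed to 1.15 to 2.97 CPM over all libraries and had 4 of 5 genes under 0.5 CPM. Neural markers had 3 of 4 genes under 0.5 CPM, and their sum of 269 to 411 CPM was almost wholly TUBB3.

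Library KI DMSO replicate 2 stood apart from its group. On the second principal component (13.2% of the variance) it lay at 63.0, against 16.4 and 18.1 for KI DMSO replicates 1 and 3. Its count-weighted mean transcript length was 2986 bases, against 3325 to 3468 in the other 11 libraries. Relative to the other 2 KI DMSO libraries the genes in the longest of 3 equal classes by transcript length were lower in it by a median log2 of -0.26, and those in the shortest class were higher by 0.18. Of the 8 members 7 belong to the longest class, and the members lay between -0.52 (INPP4B) and -0.19 (PIK3R2) in it. The fit pools the spread of each gene over all 12 libraries. This library therefore also enters the adjusted p values of comparisons without KI DMSO. Gene-level results of the 8 members that use KI DMSO are also given without this library where it moved them. For the other pathway genes only the counts of calls are, and their single values include it. The part of transcript length in these results was not tested beyond the fit with length offsets described with the processing.

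PIK3IP1 and PIK3CA were the 2 members whose BYL719 effect was called as different between the lines, and INPP4B was lower in KI than in parental cells under both treatments. In DMSO PIK3IP1 and PIK3CA were also lower in KI than in parental cells, BYL719 raised both in KI cells, and the BYL719 effect on both was larger in KI than in parental cells. Of the 8 genes, 5 were called in KI against parental cells in DMSO (1 higher, 4 lower), against 34.3% of all genes tested. BYL719 against DMSO called 5 in KI cells (4 higher, 1 lower; 28.3% of all genes) and 1 in parental cells (higher; 1.42%). KI against parental under BYL719 called 4 (3 higher, 1 lower; 22.4%), and the difference between the BYL719 effects in the 2 lines called 2 (both higher; 2.88%). A call is a Benjamini-Hochberg adjusted p under 0.05 over all 21055 genes in the edgeR quasi-likelihood test. The median log2 difference of the 8 genes was -0.17 in the first of these comparisons, 0.27 for BYL719 in KI cells, 0.11 for BYL719 in parental cells, 0.06 under BYL719 and 0.17 for the difference of effects, and the median over all genes tested lay between 0.0049 and 0.019. Without KI DMSO replicate 2 the counts, in the order just given, were 6, 4, 3, 5 and 3, while 39.0%, 32.5%, 9.18%, 34.6% and 8.72% of all genes were called. The 5 comparisons share groups, so their values are given side by side and not as independent evidence.

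**Figure D1:**
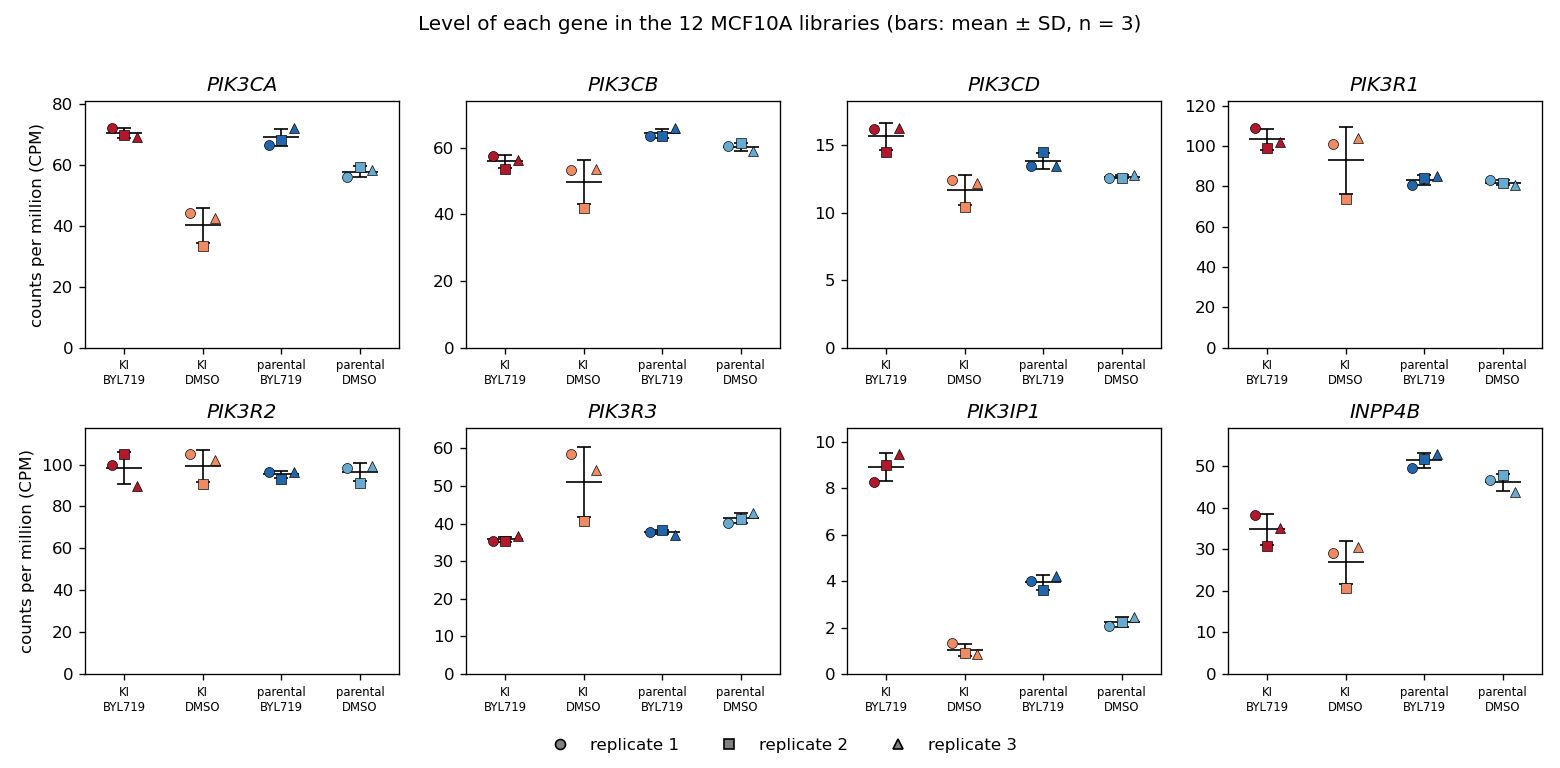
CPM of each gene in every library, grouped by line and treatment, with 1 symbol per replicate number and bars for the mean ± SD (n = 3). PIK3IP1 separates the 4 groups, from 0.878 to 1.34 CPM in KI DMSO to 8.25 to 9.47 CPM in KI BYL719, and the squares of KI DMSO (replicate 2) lie low in most panels.

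**Figure D2:**
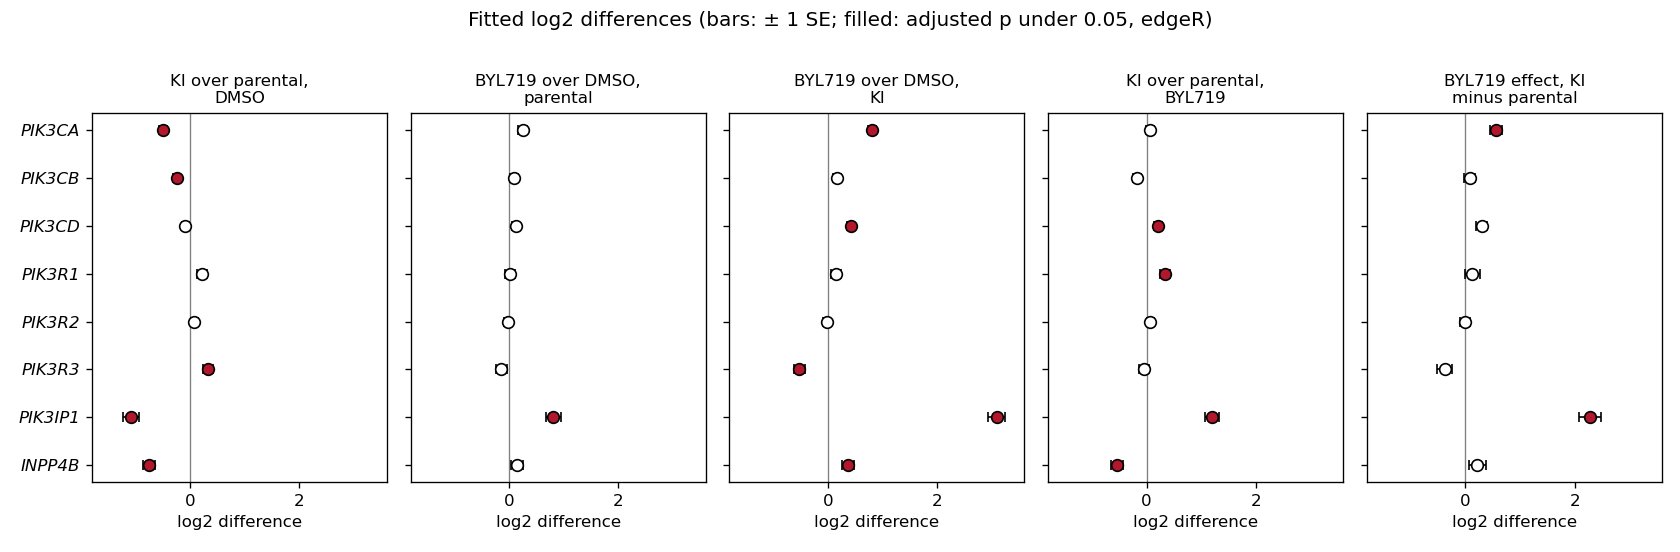
Fitted log2 differences of the 8 genes in the 5 comparisons, with bars of 1 standard error and filled points for an adjusted p under 0.05. The largest is PIK3IP1 with BYL719 in KI cells (3.09), and PIK3R2 lies near 0 in all panels.

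PIK3CA encodes p110 alpha, the subunit that carries the knock-in. It had 72.2, 69.9 and 69.3 CPM in KI BYL719, 44.3, 33.4 and 42.7 CPM in KI DMSO, 66.7, 68.3 and 72.1 CPM in parental BYL719 and 55.9, 59.2 and 58.3 CPM in parental DMSO. KI DMSO lay below all other libraries, and the 2 BYL719 groups overlapped. In DMSO it fell in KI cells to 40.2 ± 5.90 CPM, against 57.8 ± 1.69 CPM in parental cells (SD, n = 3 each), a log2 difference of -0.50 (SE 0.079, adjusted p = 0.000377), or -0.40 (adjusted p = 2.41e-06) without KI DMSO replicate 2. BYL719 raised it in KI cells to 70.5 ± 1.55 CPM, a log2 difference of 0.81 (SE 0.0792, adjusted p = 1.67e-05), or 0.69 (adjusted p = 1.19e-08) without that library. In parental cells it averaged 69.0 ± 2.81 CPM with BYL719 and 57.8 ± 1.69 CPM with DMSO, with no overlap, but the log2 difference of 0.25 had an adjusted p of 0.173. That value became 0.0007 without KI DMSO replicate 2 and 1.6e-05 with only the 2 groups compared. KI DMSO is not part of this comparison, but the fit pools the spread of a gene over all groups. The log2 difference stayed at 0.25 without that library.

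The BYL719 effect on PIK3CA was larger in KI than in parental cells by a log2 of 0.56 (SE 0.111, adjusted p = 0.0199). Without KI DMSO replicate 2 the difference was 0.44 with an adjusted p of 0.000172. The call was lost when KI BYL719 replicate 2 or 3, parental BYL719 replicate 1 or 2, or parental DMSO replicate 2 or 3 was left out, at adjusted p values of 0.0521 to 0.0679, and with effective-length offsets (0.69, adjusted p = 0.0828). Under BYL719 the lines had 70.5 ± 1.55 CPM (KI) and 69.0 ± 2.81 CPM (parental), and the log2 difference of 0.06 (SE 0.0784, adjusted p = 0.691) was not past the threshold. These counts come from bulk RNA, in which fewer cells of a kind and less RNA per cell cannot be told apart.

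PIK3CB encodes p110 beta, a broadly expressed catalytic subunit that also answers to G protein-coupled receptors. Its levels were 57.6, 53.7 and 56.2 CPM in KI BYL719, 53.4, 42.0 and 53.6 CPM in KI DMSO, 63.4, 63.5 and 65.9 CPM in parental BYL719 and 60.4, 61.4 and 59.0 CPM in parental DMSO. All 6 KI libraries were below all 6 parental libraries. It fell in KI against parental cells in DMSO by -0.25 in log2 (SE 0.0711, adjusted p = 0.0155), or -0.16 (adjusted p = 0.00335) without KI DMSO replicate 2. Without parental DMSO replicate 2 the adjusted p was 0.0517, with effective-length offsets 0.0731 and with only the 2 groups 0.0683. Under BYL719 the log2 difference was -0.18 (adjusted p = 0.103), and -0.19 (adjusted p = 0.000415) without KI DMSO replicate 2. The BYL719 effect was 0.17 in KI cells (adjusted p = 0.103), which became 0.06 (adjusted p = 0.3) without KI DMSO replicate 2. In parental cells it was 0.09 (adjusted p = 0.747).

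PIK3CD encodes p110 delta, which is best known from leukocytes, and had the lowest TPM (a level per transcript length) of the catalytic genes. It had 16.2, 14.5 and 16.3 CPM in KI BYL719, 12.4, 10.4 and 12.2 CPM in KI DMSO, 13.5, 14.5 and 13.5 CPM in parental BYL719 and 12.6, 12.6 and 12.8 CPM in parental DMSO. KI BYL719 was above both DMSO groups and met parental BYL719 at replicate 2. BYL719 raised it in KI cells by a log2 of 0.42 (SE 0.0687, adjusted p = 0.000704), or 0.35 (adjusted p = 0.000365) without KI DMSO replicate 2. In parental cells the log2 difference was 0.12 (adjusted p = 0.548), and the effects differed by 0.30 (SE 0.0971, adjusted p = 0.134), which was not called. Under BYL719 it was higher in KI than in parental cells by 0.21 at an adjusted p of 0.0496, a call that held in 5 of 19 alternative analyses and had adjusted p values of 0.00974 to 0.632 over them. It was lost on leaving out KI BYL719 replicate 1 or 3, KI DMSO replicate 3, or any parental library, at 0.059 to 0.169. In DMSO the log2 difference between the lines was -0.09 (adjusted p = 0.331), or -0.03 (adjusted p = 0.727) without KI DMSO replicate 2. Without that library the effects differed by 0.23 (adjusted p = 0.101).

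PIK3R1 encodes p85 alpha and, from inner promoters, the shorter p55 alpha and p50 alpha. It had 109, 98.9 and 102 CPM in KI BYL719, 101, 73.5 and 104 CPM in KI DMSO, 80.5, 84.3 and 84.9 CPM in parental BYL719 and 83.0, 81.6 and 80.5 CPM in parental DMSO. KI libraries were above parental ones except KI DMSO replicate 2, which was the lowest of the 12. In DMSO the log2 difference between KI and parental cells was 0.21 (SE 0.094, adjusted p = 0.107), and 0.34 (adjusted p = 9.39e-06) without KI DMSO replicate 2. Under BYL719 it was higher in KI cells by 0.34 (SE 0.094, adjusted p = 0.0212), with an adjusted p of 4.89e-06 without KI DMSO replicate 2. That call was lost without KI BYL719 replicate 1 or 3 or any of the 3 parental BYL719 libraries, at adjusted p values of 0.052 to 0.0812, and with effective-length offsets (0.259). The BYL719 difference was 0.15 in KI cells (adjusted p = 0.259), and 0 at the 2 decimals used here (adjusted p = 0.96) without KI DMSO replicate 2. In parental cells it was 0.02 (adjusted p = 0.984).

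PIK3R2 encodes p85 beta and was called in none of the 5 comparisons. It ranged over 89.9 to 105 CPM in KI BYL719, 90.9 to 105 CPM in KI DMSO, 93.3 to 96.4 CPM in parental BYL719 and 91.3 to 99.2 CPM in parental DMSO, and the ranges of the 4 groups overlapped. In DMSO the log2 difference between KI and parental cells was 0.07 (SE 0.0632, adjusted p = 0.431), with an interval of about 2 SE on either side from -0.0538 to 0.194. The BYL719 difference was -0.02 in each line (SE 0.0632 each), with an interval from -0.143 to 0.105. Without KI DMSO replicate 2 the difference in DMSO was 0.12 and the BYL719 difference in KI cells -0.08. No alternative analysis called PIK3R2 in any comparison.

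PIK3R3 encodes p55 gamma, a shorter regulatory subunit. It had 35.3, 35.4 and 36.7 CPM in KI BYL719, 58.5, 40.6 and 54.2 CPM in KI DMSO, 37.8, 38.2 and 37.1 CPM in parental BYL719 and 40.2, 41.2 and 42.8 CPM in parental DMSO. Its highest values were KI DMSO replicates 1 and 3, while replicate 2 lay within the parental DMSO range. It was higher in KI than in parental cells in DMSO by a log2 of 0.33 (SE 0.0938, adjusted p = 0.0168), or 0.46 (adjusted p = 3.53e-07) without KI DMSO replicate 2. The call was lost without KI DMSO replicate 1 (0.23, adjusted p = 0.06), KI DMSO replicate 3 (adjusted p = 0.0538) or parental DMSO replicate 2 (adjusted p = 0.0544), with effective-length offsets (adjusted p = 0.213) and with only the 2 groups (adjusted p = 0.0889). BYL719 lowered it in KI cells by -0.52 (SE 0.094, adjusted p = 0.00152), a call kept in 19 of 19 alternative analyses, with -0.66 without KI DMSO replicate 2. In parental cells the difference was -0.14 (adjusted p = 0.661), which became -0.15 (adjusted p = 0.0259) without KI DMSO replicate 2. The 2 effects differed by -0.38 (adjusted p = 0.167), and by -0.52 (adjusted p = 4.06e-05) without that library.

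PIK3IP1, the inhibitor of p110, had the lowest TPM of the 8 genes in DMSO and the largest differences. It had 8.25, 9.01 and 9.47 CPM in KI BYL719, 1.34, 0.900 and 0.878 CPM in KI DMSO, 3.99, 3.62 and 4.24 CPM in parental BYL719 and 2.05, 2.23 and 2.46 CPM in parental DMSO. The 4 groups did not overlap, and the KI line held both the lowest and the highest values. BYL719 raised it in KI cells 8.53-fold, to 8.91 ± 0.619 CPM, against 1.04 ± 0.260 CPM with DMSO (SD, n = 3 each; log2 3.09, SE 0.148, adjusted p = 5.59e-08). In parental cells BYL719 raised it 1.75-fold, to 3.95 ± 0.311 CPM, against 2.25 ± 0.206 CPM with DMSO (log2 0.81, SE 0.138, adjusted p = 0.0125). The parental call was lost without parental BYL719 replicate 1 (adjusted p = 0.0583) or 3 (0.0878), or without parental DMSO replicate 1 (0.0889) or 2 (0.0769), with log2 values of 0.74 to 0.80. It was kept in 15 of 19 alternative analyses, with an adjusted p of 0.000767 without KI DMSO replicate 2.

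The direction between the lines turned with treatment. PIK3IP1 was lower in KI than in parental cells in DMSO (log2 -1.08, SE 0.148, adjusted p = 0.000124) and higher under BYL719 (log2 1.2, SE 0.134, adjusted p = 2.78e-05). The difference between the BYL719 effects was 2.28 (SE 0.199, adjusted p = 0.000103). Without KI DMSO replicate 2 these values were -1.0, 1.19 and 2.19, and the BYL719 effect in KI cells was 2.99. The 3 calls were kept in all the alternative analyses run, 19 for each comparison between the lines and 18 for the difference of effects.

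INPP4B, the lipid phosphatase, was lower in the KI line under both treatments. It had 38.2, 30.9 and 35.2 CPM in KI BYL719, 29.2, 20.8 and 30.5 CPM in KI DMSO, 49.5, 51.8 and 52.9 CPM in parental BYL719 and 46.7, 47.9 and 43.9 CPM in parental DMSO. All 6 KI libraries were below all 6 parental libraries. It fell in KI against parental cells by a log2 of -0.76 in DMSO (SE 0.113, adjusted p = 0.000245) and -0.54 under BYL719 (SE 0.113, adjusted p = 0.00382), and both calls were kept in 19 of 19 alternative analyses. Without KI DMSO replicate 2 they were -0.62 and -0.55. BYL719 raised it in KI cells by 0.37 (SE 0.113, adjusted p = 0.0275). That call was lost without KI DMSO replicate 2 (0.22, adjusted p = 0.0656), KI BYL719 replicate 1 (adjusted p = 0.126) or 3 (0.0773), or parental DMSO replicate 1 (0.0502). It was also lost with effective-length offsets (0.131), with no filter (0.0694) and with only the 2 groups (0.132). In parental cells the difference was 0.15 (adjusted p = 0.711), and the effects differed by 0.22 (SE 0.159, adjusted p = 0.51), or 0.07 (adjusted p = 0.774) without KI DMSO replicate 2.

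Levels of different genes were compared on the TPM scale, which divides by transcript length. Over the 12 libraries PIK3R2 averaged 35.0 ± 2.21 TPM, PIK3CB 29.9 ± 4.70, PIK3R1 22.2 ± 4.15, PIK3CA 19.6 ± 5.17, INPP4B 12.9 ± 3.28, PIK3R3 12.1 ± 2.66, PIK3CD 4.57 ± 0.701 and PIK3IP1 2.32 ± 1.82 (SD, n = 12, all groups pooled). These levels include short transcripts with few estimated counts, which weigh more in TPM than in counts. The order changed between groups. In KI BYL719 the ranges of PIK3R1 and PIK3CA overlapped, as did those of INPP4B and PIK3R3, and those of PIK3CD (4.36 to 5.71 TPM) and PIK3IP1 (4.89 to 5.39 TPM). In KI DMSO the neighbours from PIK3CB down to INPP4B overlapped, since replicate 2 was low, while PIK3R2 stood above them, and PIK3IP1 was last at 0.467 to 0.795 TPM, below PIK3CD at 3.22 to 4.18 TPM. In parental BYL719 PIK3CB and PIK3R2 overlapped at the top (34.1 to 34.7 and 33.5 to 34.9 TPM), and PIK3CA and PIK3R1 overlapped below them. In parental DMSO only PIK3R1 and PIK3CA overlapped among neighbours.

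PIK3CA made up a different part of the catalytic transcripts in each KI group. Its share of the summed TPM of PIK3CA, PIK3CB and PIK3CD was 41.6% ± 2.48 in KI BYL719, 29.7% ± 0.956 in KI DMSO, 36.7% ± 0.718 in parental BYL719 and 34.8% ± 1.77 in parental DMSO (SD, n = 3 each). KI BYL719 had the highest 3 values (39.5% to 44.3%) and KI DMSO the lowest 3 (28.7% to 30.5%). PIK3CB took 49.6% ± 1.39, 60.6% ± 0.490, 55.4% ± 0.977 and 57.2% ± 2.04 in the same order of groups, and PIK3CD stayed between 7.18% and 11.3%. Short transcripts with few counts enter these shares. PIK3CB-202 (667 bases) averaged 40.1% of PIK3CB TPM and PIK3CA-202 (746 bases) 28.6% of PIK3CA TPM. As single transcripts, PIK3CB-208 averaged 14.1 TPM in KI BYL719 and 14.5 in parental DMSO. PIK3CA-205 averaged 9.9 and 8.51 TPM and PIK3CA-201 6.32 and 4.86 TPM in those groups. The size of the lead of PIK3CB over PIK3CA in TPM depends on the short transcripts.

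Among the regulatory transcripts PIK3R2 had the highest mean share of TPM in every group. It took 51.1% ± 1.5 in KI BYL719, 49.4% ± 6.66 in KI DMSO, 51.7% ± 1.69 in parental BYL719 and 51.1% ± 2.16 in parental DMSO. PIK3R3 took 14.1% ± 1.13, 19.7% ± 2.15, 17.4% ± 1.03 and 18.6% ± 0.979 in that order. The ratio of summed regulatory to summed catalytic TPM was 1.22 ± 0.0210 in KI BYL719, 1.78 ± 0.0726 in KI DMSO, 1.06 ± 0.00778 in parental BYL719 and 1.23 ± 0.0514 in parental DMSO. All KI DMSO libraries (1.73 to 1.86) were above the other 9 (at most 1.27), and replicate 2 had the highest ratio while both of its sums were the lowest, at 53.2 and 28.6 TPM. The order depends on the scale, since TPM divides by transcript length. By counts PIK3R1 had 43.5% and PIK3R2 41.4% of the regulatory sum in KI BYL719. By counts PIK3CA also stood above PIK3CB in KI BYL719 (49.6% and 39.3%) and in parental BYL719 (46.9% and 43.7%). The ratio by counts was 1.67 ± 0.0599, 2.39 ± 0.0119, 1.47 ± 0.027 and 1.68 ± 0.0616 in the order of groups above, again highest in KI DMSO. These shares and ratios are descriptions of transcript levels that include the short transcripts, and they were not tested or computed without them.

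**Figure D3:**
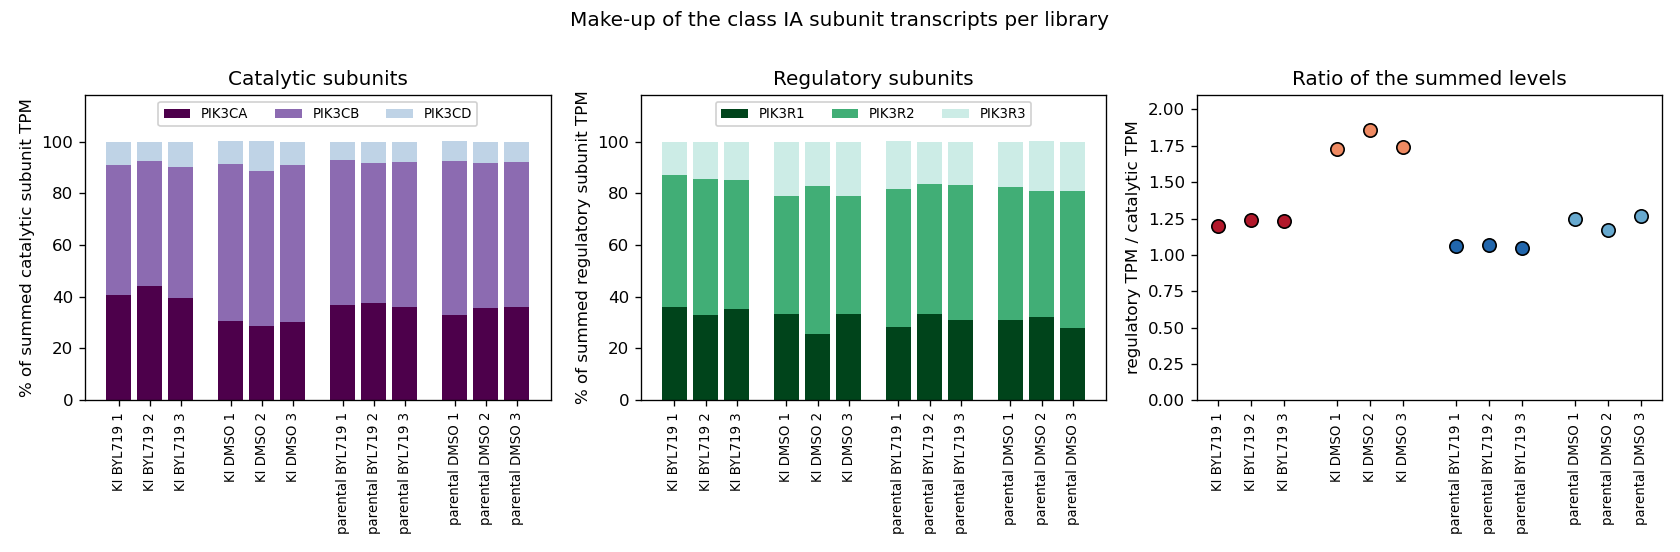
Share of each subunit gene in the summed TPM of its family, in percent, and the ratio of the 2 sums, with 1 bar or point per library. The PIK3CA share is lowest and the ratio highest in the 3 KI DMSO libraries (ratio 1.73 to 1.86), against at most 1.27 elsewhere.

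The 8 genes had 87 listed transcripts, of which 52 passed the filter on low counts and were tested for usage, that is, for a change relative to the other transcripts of the same gene. Few were called. The test found 1 in KI against parental cells in DMSO (1.02% of all 86009 transcripts tested), 2 for BYL719 in KI cells (0.965%), 0 for BYL719 in parental cells (0.443%), 0 for KI against parental under BYL719 (0.55%) and 1 for the difference of effects (0.753%). The counts at an unadjusted p under 0.05 were 6, 4, 2, 1 and 3 of 52, against 4.68%, 4.46%, 2.6%, 3.13% and 4.03% of all transcripts tested. Reads shared by isoforms were divided by Salmon's estimate, whose own error the test does not see.

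The 3 main transcripts of PIK3CA were not called for usage in any comparison. PIK3CA-205 held 40.8% ± 3.37 of the gene's TPM in KI BYL719, 45.4% ± 2.75 in KI DMSO, 45.4% ± 0.586 in parental BYL719 and 45% ± 2.1 in parental DMSO, and PIK3CA-201, with the full 1068 codons, averaged 26.4% over the 12 libraries. The retained-intron transcript PIK3CA-202 averaged 28.6%, from 108 to 475 estimated counts, against 1552 to 4214 for PIK3CA-205. Each of these 3 rose with BYL719 in KI cells as a transcript, by a log2 of 0.74 (adjusted p = 0.0169), 0.78 (adjusted p = 0.000288) and 1.22 (adjusted p = 0.0211). Of the member transcripts 6 were called for level in that comparison, against 3.56% of all 93545 transcripts, and 0 for BYL719 in parental cells, against 0.0267%.

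By TPM PIK3CB was divided between the full-length PIK3CB-208 (mean share 47.2%) and the 667-base PIK3CB-202 (40.1%). PIK3CD was divided between PIK3CD-202 (69.5%) and the noncoding PIK3CD-205 (22.2%). The shares of the short transcripts rest on few counts. PIK3CB-202, annotated as incomplete at its end, had 259 to 714 estimated counts, against 4395 to 7862 for PIK3CB-208. PIK3CD-205 had 16 to 44, against 1271 to 2211 for PIK3CD-202. PIK3CD-205 held 22.3%, 12.3% and 14.5% in KI BYL719, 19.1%, 26.2% and 25.0% in KI DMSO, 23.3%, 24.9% and 22.9% in parental BYL719 and 21.5%, 30.8% and 23.9% in parental DMSO. KI BYL719 held the 2 lowest of these shares and otherwise overlapped KI DMSO, and the usage test did not call it. PIK3CB-206, annotated for nonsense-mediated decay, was called lower in usage with BYL719 in KI cells (log2 -3.10, adjusted p = 0.0466) from 32, 0 and 19 estimated counts in KI BYL719 and 30, 296 and 34 in KI DMSO. The value of 296 is KI DMSO replicate 2, and without that library the call was lost, with a log2 of -1.0. It was also lost without any 1 of the KI BYL719 or parental DMSO libraries or parental BYL719 replicate 1 or 3, at adjusted p values of 0.093 to 0.511.

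PIK3R1 was expressed mainly as p85 alpha. The 2 transcripts with the 724-codon frame held 84.4% ± 3.74 of its TPM in KI BYL719, 83.1% ± 10.5 in KI DMSO, 81.3% ± 7.30 in parental BYL719 and 82.3% ± 6.18 in parental DMSO. The 454-codon p55 alpha transcript PIK3R1-202 had 3.5%, 4.96% and 7.03% in KI BYL719, 2.79%, 1.63% and 5.03% in KI DMSO, 5.16%, 9.53% and 6.39% in parental BYL719 and 1.30%, 1.92% and 0% in parental DMSO. The parental groups did not overlap, and the KI groups did. Its usage difference for BYL719 in parental cells was a log2 of 2.65 at an unadjusted p of 0.00593 and an adjusted p of 0.499, so it was not called. The 424-codon p50 alpha transcript PIK3R1-201 stayed at 0% to 1.83%. PIK3R1-202 and PIK3R1-201 were picked by coding frame after their values were seen.

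PIK3R2-201 held 93.6% of its gene on average. PIK3R3-201, with 461 codons, held 76.6% of PIK3R3 and PIK3R3-205 14.6%. PIK3R3-205, annotated as incomplete at its end, had at most 181 estimated counts and was listed at 0 in KI BYL719 replicate 1 and KI DMSO replicate 2. PIK3R3-201 fell with BYL719 in KI cells as a transcript by a log2 of -0.53 (adjusted p = 0.0259).

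Most PIK3IP1 TPM came from the 263-codon transcript PIK3IP1-201, which had 4.47, 4.66 and 4.61 TPM in KI BYL719, 0.608, 0.448 and 0.466 TPM in KI DMSO, 2.06, 1.70 and 2.18 TPM in parental BYL719 and 0.801, 0.982 and 1.08 TPM in parental DMSO. The 4 groups did not overlap. As a transcript it changed by a log2 of 3.11 with BYL719 in KI cells (adjusted p = 1.68e-05), -0.86 in KI against parental cells in DMSO (adjusted p = 0.0122) and 1.21 under BYL719 (adjusted p = 0.00205), and its response differed between the lines by 2.07 (adjusted p = 0.00958). For BYL719 in parental cells its log2 difference of 1.04 (adjusted p = 0.106) was not called, although the gene was. Of all transcripts, 4.88%, 2.85% and 0.0748% were called for level in KI against parental in DMSO, under BYL719 and for the difference of responses. The 173-codon PIK3IP1-203, picked after its values were seen, took 4.39%, 5.55% and 7.56% of the gene in KI BYL719, 19.1%, 0% and 0% in KI DMSO, 3.72%, 11.6% and 6.73% in parental BYL719 and 16.6%, 19.5% and 18.3% in parental DMSO. It rested on at most 98 counts, and no usage test called it.

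INPP4B was spread over several transcripts. INPP4B-214 (33.7% of its TPM on average), INPP4B-220 (28.0%) and INPP4B-201 (4.77%) share a frame of 924 codons, and INPP4B-217 (23.0%) is annotated as incomplete at its end. INPP4B-201 had 470, 219 and 187 estimated counts in KI BYL719, 0, 0 and 0 in KI DMSO, 261, 536 and 553 in parental BYL719 and 210, 516 and 0 in parental DMSO. It was called for usage in KI against parental cells in DMSO (adjusted p = 3.24e-05), with BYL719 in KI cells (adjusted p = 6.82e-06) and for the difference of effects (adjusted p = 0.00082) and is listed at 0 in KI DMSO, so its fitted sizes depend on the prior count and are not read as folds. As a transcript level it was not called in these comparisons, with adjusted p values of 0.0605, 0.0636 and 0.546. INPP4B-201 passed the low-count filter only through groups other than KI DMSO. In the fit of the 2 DMSO groups alone it did not pass and was not tested, so its usage call in DMSO rests on the fit of all groups. The 3 transcripts of 924 codons together held 66.0% ± 0.666 in KI BYL719, 64.4% ± 8.56 in KI DMSO, 67.2% ± 3.49 in parental BYL719 and 68.4% ± 2.40 in parental DMSO, and their ranges overlapped.

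**Figure D4:**
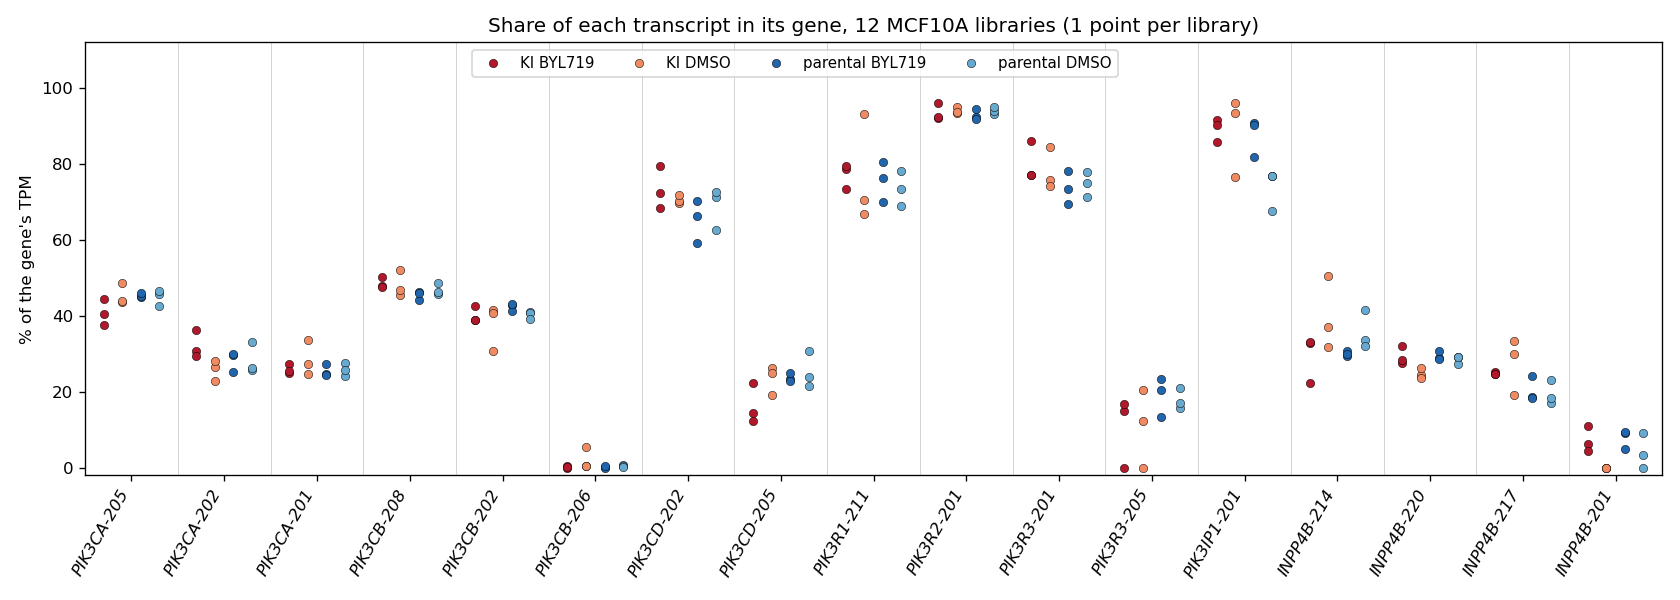
Share of each named transcript in the TPM of its gene, in percent, with 1 point per library and 1 colour per group. Most shares overlap between the groups, and INPP4B-201 is at 0% in the 3 KI DMSO libraries and 1 parental DMSO library.

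The genes most like each member over the 12 libraries were sought among 13767 other genes by Pearson's r of log2(CPM + 0.5). For PIK3IP1 they were FBXO8 (r = 0.995) and CREBRF (0.993), for PIK3CA BTBD8 and CEP68 (0.994 each), and for PIK3CB TRIM25 (0.990) and HIPK3 (0.988). For PIK3CD they were SERINC3 (0.977) and SLC9A7 (0.970), for PIK3R1 KATNAL1 (0.988) and IGF2BP3 (0.975), and for PIK3R3 PPP1R15B (0.984) and HSPA4 (0.960). INPP4B had ITGA6 and ARNTL (0.991 each), and PIK3R2 had the lowest values, with ARHGAP10 (0.899) and MBOAT7 (0.851). These correlations mix the differences between 4 groups with the spread inside them and include KI DMSO replicate 2, and they are a description with no test.

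Of 40 other names of the pathway, 35 were tested. They include other PI3K classes, lipid phosphatases, AKT, and the mTOR and TSC complexes. In DMSO 3 were higher and 13 lower in KI than in parental cells, against 17% and 17.3% of all genes. Those lower included the class II PI3K genes PIK3C2G (log2 -0.93, adjusted p = 7.01e-05) and PIK3C2B (-0.67, adjusted p = 8.98e-05), and those higher the Rac exchange factor PREX1 (0.90, adjusted p = 0.00442) and the AKT-binding pseudokinase TRIB3 (0.45, adjusted p = 0.0202). PREX1 was under 1 CPM in every library.

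BYL719 in KI cells raised 10 of the 35 and lowered 2, against 15.1% and 13.2% of all genes. The largest rises were RICTOR, the scaffold of mTOR complex 2 (log2 1.02, adjusted p = 0.000188), and PIK3C2G (0.70, adjusted p = 0.000891), with INPP5K at the same printed value (0.70, adjusted p = 4.58e-07), and the falls were TRIB3 (-0.61, adjusted p = 0.00452) and THEM4 (-0.23, adjusted p = 0.00305). RICTOR averaged 76.7 ± 2.57 CPM in KI BYL719, 37.9 ± 10.1 in KI DMSO, 72.4 ± 3.46 in parental BYL719 and 57.6 ± 0.400 in parental DMSO. In parental cells BYL719 called 0 of the 35 in edgeR, against 0.831% (higher) and 0.589% (lower) of all genes. At an unadjusted p under 0.05 there were 4 of the 35, against 2539 of all 21055 genes tested. Under BYL719 1 was higher and 4 lower in KI cells, against 11.5% and 10.9% of all genes, with PREX1 (0.89, adjusted p = 0.00649) the higher one and PIK3C2B (-0.84, adjusted p = 1.47e-05) and INPP5F (-0.26, adjusted p = 0.0473) among the lower. The difference of effects called the inositol phosphatase gene INPP5K alone (0.51, adjusted p = 0.000937), which was higher, against 2.09% of all genes.

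Without KI DMSO replicate 2 the pathway counts were 4 higher and 15 lower in KI against parental cells in DMSO, with TRIB3 no longer called. For BYL719 they were 10 and 7 in KI cells and 4 and 1 in parental cells, and for KI against parental under BYL719 5 and 10. The difference of effects then had 6 higher and 1 lower. Of all genes, 39.0%, 32.5%, 9.18%, 34.6% and 8.72% were called without that library in these comparisons. PIK3CD-AS1, PIK3CD-AS2 and PIK3IP1-AS1, whose names mark them as antisense to members, were at 0.147 CPM or less in every library. The sources used here do not say whether the libraries kept strand.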

How the data were processed

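RNA from MCF10A cells was sequenced as paired reads of 150 nt, per the labels. The submitters' processing notes name Trim Galore 0.6.1, cutadapt, Salmon 1.2.1, DESeq2 1.28.1 and the build GRCh38. The deposited tables give 1 row per transcript with its expected count (Salmon's estimate of read pairs, often fractional), its TPM, which the authors' tool scaled to a fixed sum per library, and another column, the effective length in bases. How RNA was selected and whether strand was kept are stated in none of the sources used here.

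Deposited expected counts were summed by symbol and rounded. Genes passing filterByExpr (minimum count 10) were fitted over the 12 libraries by group means with edgeR 4.0.16 in R 4.3.3 (TMM scaling, robust quasi-likelihood, 8 residual degrees of freedom), and p-values were adjusted by Benjamini-Hochberg over all genes. All tests were two-sided. SE is the log2 difference divided by the square root of F. CPM is the count scaled to the library total. Transcript usage was tested with diffSpliceDGE over all transcripts. This test treats the gene's own change as known and was slightly liberal for the transcripts of simulated data. How liberal it is for transcripts like the called ones was not tested, so their error may be larger. Of these, INPP4B-201 averaged 4.77% of its gene's TPM and was listed at 0 in KI DMSO, and PIK3CB-206 averaged 0.709%. The usage test does not see Salmon's assignment error.

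Alternatives were RLE scaling, no filter, DESeq2 1.42.0, 2 groups only, a replicate block, effective-length offsets, sums by gene identifier, and leaving out each library. Named transcripts hold at least 10% of their gene's TPM or were called, and pathway genes are the 2 largest called rises and falls. Members and lists were chosen with earlier results of these data known. The pathway counts without KI DMSO replicate 2 were added after seeing the data. Marker lists served as checks. Coordinates are from GENCODE release 29 and RefSeq. The transcript versions in the tables are newer than release 29 for PIK3CA-201, PIK3R1-211, PIK3R2-201 and PIK3R3-201, so their codon numbers come from the older version. No library was a copy of another in its group (chi-square per degree of freedom of 4.58 to 167).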

Additional observations from a re-analysis of the deposited data

Results flagged for a closer look

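In 3 cases the response to BYL719 was called as different between KI and parental cells by a test of the difference itself. For PIK3IP1 the BYL719 effect in KI cells exceeded that in parental cells by a log2 of 2.28 (edgeR adjusted p = 0.000103), with 3 of 3 KI libraries above all parental ones under BYL719 and 3 of 3 below them in DMSO. For PIK3CA the excess was 0.56 (adjusted p = 0.0199), and KI cells were below parental cells in 3 of 3 libraries in DMSO while the lines overlapped under BYL719. The PIK3CA call held in only 11 of 18 alternative analyses, with adjusted p values up to 0.0828, and the PIK3IP1 call in 18 of 18. For the usage of INPP4B-201 the fitted difference was 9.97 on the log2 scale (adjusted p = 0.00082), a size that depends on the prior count because KI DMSO was listed at 0, and that is no bound. As a transcript level INPP4B-201 was not called for this difference (adjusted p = 0.546), and it passed the low-count filter only through groups other than KI DMSO. It was also listed at 0 in parental DMSO replicate 3, beside 210 and 516 estimated counts in replicates 1 and 2. Groups of 3 libraries are too small for the check on outlying samples.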

How the results depend on the processing

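The counts of called genes among the 8 are given here with the share of all genes called in the same fit. With effective-length offsets they were 3 for KI against parental in DMSO (27.8%), 2 under BYL719 (16.9%) and 1 for the difference of BYL719 effects (1.31%), in place of 5, 4 and 2. With only the 2 groups compared they were 3 for KI against parental in DMSO (25.3%) and 5 for BYL719 in parental cells (17.3%), in place of 5 and 1. The 4 gained in parental cells were PIK3CA (adjusted p = 1.6e-05), PIK3CB (0.0299), PIK3R3 (0.0037) and INPP4B (0.00253). Leaving out 1 library at a time gave 3 to 6 for KI against parental in DMSO (26.8% to 39.0%), 0 to 3 for BYL719 in parental cells (0.339% to 9.18%), 2 to 5 under BYL719 (16.6% to 34.6%) and 1 to 3 for the difference of effects (1.13% to 8.72%). Under BYL719 RLE scaling, no filter and DESeq2 each gave 3 in place of 4. For BYL719 in KI cells the counts were 4 or 5 under the alternatives run. The cause was not tested.

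Usage calls among the transcripts fell to 0 for KI against parental in DMSO, BYL719 in KI cells and the difference of effects when only transcripts of at least 10% of their gene were kept, which leaves out the 2 called ones. With only the 2 groups they were 0 for KI against parental in DMSO and 1 for BYL719 in KI cells. In that fit of the DMSO groups INPP4B-201 did not pass the low-count filter and was not tested. Leaving out 1 library gave 1 to 2 for BYL719 in KI cells and 0 to 1 for KI against parental under BYL719.

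Over 752 values of single genes under alternatives, 681 kept direction and side of the threshold, 46 lost a call, 10 gained one and 15 changed sign, all of them uncalled. With effective-length offsets these were PIK3R1 for BYL719 in parental cells (-0.0078), and PIK3R2 for BYL719 in KI cells (0.0042) and for the difference of effects (0.02). Leaving out 1 library moved PIK3R2 over -0.06 to 0.01 for BYL719 in parental cells, -0.08 to 0.04 in KI cells and -0.06 to 0.06 for the difference of effects, where PIK3CB moved over -0.03 to 0.13 and PIK3R1 over -0.01 to 0.2.

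With the replicate number as a block the counts of called genes were 5 for KI against parental in DMSO (33.8% of all genes), 5 for BYL719 in KI cells (27.7%), 1 in parental cells (1.01%), 3 under BYL719 (21.4%) and 2 for the difference of effects (2.11%). PIK3R2 had a difference of effects of 0.00097 with the block, and usage calls for BYL719 in KI cells were 1. Whether the numbers pair the samples cannot be settled from these values. Of 18 same-numbered pairs 0 had a correlation of deviations over 0.1 (-0.0716 to 0.085). Yet 6 of 12 libraries correlated best with a library of their own number.

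With 3 libraries a group, small differences such as those of PIK3R2 are not resolved, and the low counts of PIK3IP1 in KI DMSO (114 to 184) carry more counting error than those of the other genes.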
